A study of Ptychodera flava with 8 samples.

Results

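Peaks of accessible chromatin on the small scaffolds of the acorn worm Ptychodera flava were set against those on its large scaffolds through early development. The small scaffolds are the pieces of the genome assembly below 10 Mb, taking as length the larger of the length in the scaffold name and the highest peak end in any list. They held 3433 of the 202721 peaks in the 4 deposited lists. These lay on 106 scaffolds of 53018 to 4768798 bp, with 79.4 Mb in all, against 27 scaffolds of 13241970 to 62959557 bp and 1076 Mb. The limit fell in a wide gap in length. The longest small scaffold, scaffold 28, had 16.9 peaks per Mb as a mean of the lists, and the shortest large one, scaffold 27, had 19.6. The study profiled whole animals by ATAC-seq in 4 stages, the early blastula and the early, mid and late gastrula, each from 2 libraries. No stage carries a genotype or an experimental treatment in the labels. Animals of a stage were gathered up to a set number of cells and stripped of the jelly coat chemically, so a peak is an average over the cell types of the whole animal. Each stage is 1 list of peaks without values per library, so differences between stages have no replicate check and no test was made. Where 4 values follow each other below, they run in order of development from the early blastula to the late gastrula list. The depth of the libraries is unknown, and all intervals are Wilson 95% intervals that cover the counting error of peaks only.

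In ATAC-seq the Tn5 transposase cuts DNA that is not wrapped around nucleosomes, so peaks mark open promoters, enhancers and other regulatory stretches. In a hemichordate embryo the blastula is a hollow ball of cells, and gastrulation folds part of its wall inwards to form the gut while cell fates are set. An assembly usually joins most of the genome into a few long scaffolds that stand for chromosomes. What remains as short scaffolds is often sequence that was hard to place, such as repeats, the neighbourhood of centromeres, or a second copy of a stretch that differs between the parental chromosomes. Reads from such sequence can map to more than 1 place. What the small scaffolds of this assembly contain was not examined here, because no genome sequence or annotation of the build of the lists was at hand. No gene is therefore named beside a site.

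Small scaffolds held few peaks for their length, and by nearly the same factor in every list. They made up 6.87% of the length of all scaffolds with a peak and held 1.69% of the peaks. The 4 lists had 784 (1.69%, 1.58 to 1.82), 825 (1.70%, 1.59 to 1.82), 730 (1.69%, 1.57 to 1.81) and 1094 (1.69%, 1.59 to 1.79) peaks on them. Density was 9.88, 10.4, 9.198 and 13.8 peaks per Mb, and on the large scaffolds 42.3, 44.2, 39.6 and 59.1. The small scaffolds thus had 0.234, 0.235, 0.232 and 0.233 times the density of the large ones. Over 3 classes of scaffold length, density was lowest in the shortest class. The 22 scaffolds of 30 Mb or more had 48.6 peaks per Mb as a mean of the lists, the 5 scaffolds of 10 to 30 Mb had 22.6, and the small ones 10.8. Single scaffolds did not follow length in this way: scaffold 3, of 50.6 Mb, had 18.3. Peaks covered 0.301% of the small scaffolds at early blastula and 0.392% at late gastrula, against 1.47% and 1.85% of the large ones. A scaffold without a peak in any list cannot be seen in these data. Scaffold numbers follow length, and 31 of the numbers up to 164 do not occur in the lists. Counting each as a scaffold with no peak would add at most 5.83 Mb. Scaffolds numbered above 164, if there are any, are not counted in this, and their total length is unknown.

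**Figure D1:**
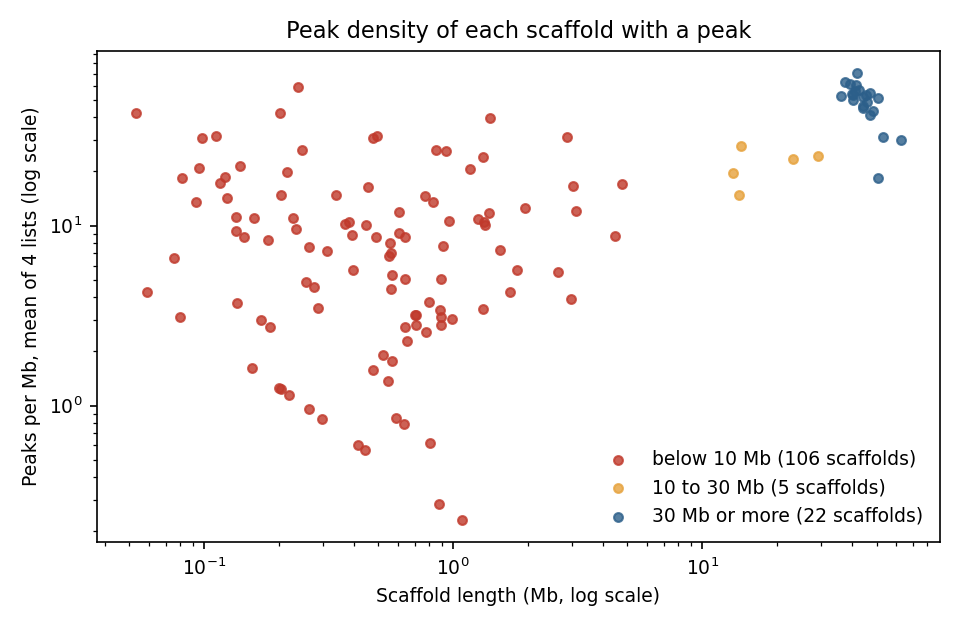
Peaks per Mb, as the mean of the 4 lists, against scaffold length in Mb, both on log scales, with 1 point per scaffold and colours for 3 classes of length. The 106 small scaffolds spread from 0.231 to 58.7 peaks per Mb, while the 27 large ones lie between 14.8 and 70.4.

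Single small scaffolds ranged from nearly empty to as dense as the large ones. Their median density was 7.89 peaks per Mb as a mean of the lists, against a median of 49.96 over the large scaffolds. Of the 106, 23 were denser than the sparsest large scaffold, and 1 was denser than the large scaffolds' median. That one was scaffold 112, 238456 bp long, with 12 peaks in each list up to mid gastrula and 20 in the last, which came to 58.7 per Mb. Scaffold 119 (42.1 per Mb) and scaffold 39 (39.7 per Mb) were next among those of at least 100 kb. The sparsest of that size were scaffold 47, with 1 peak in 1083325 bp, scaffold 56, with 1 peak in 877210 bp, and scaffold 89, with 1 peak in 443570 bp. Length within the small class did not order the densities: scaffolds of 1 to 10 Mb had 12.95 peaks per Mb, those of 300 kb to 1 Mb had 7.51, and those below 300 kb had 12.4. Peaks were present in all 4 lists on 79 of the 106 scaffolds and in 1 list alone on 14.

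The small scaffolds had both more empty stretches and thinner occupied ones. Of 844 windows of up to 100 kb on small scaffolds, 106 of them shorter pieces at scaffold ends, 382 held no peak in any list (45.3%, 41.9 to 48.6). The share was 32.8% (29.8 to 35.8) on scaffolds of 10 to 30 Mb and 12.4% (11.8 to 13.1) on those of 30 Mb or more. Among windows of the full 100 kb it was 43.8% (40.2 to 47.4) on small and 14.1% (13.4 to 14.8) on large scaffolds. Occupied windows held a median of 4 peaks over the 4 lists together (quartiles 2 and 9) against 17 (quartiles 7 and 32) on the large scaffolds. On scaffolds of 10 to 30 Mb the median was 7 (quartiles 3 and 17), and on those of 30 Mb or more 18 (quartiles 7 and 33). After overlapping peaks of the lists were merged into consensus regions, the centres of neighbouring regions on a small scaffold lay 9910 bp apart in the median, against 4804 bp on a large one. Close neighbours still occurred: 24.3% of these spacings were at most 2 kb, against 32.4% on the large scaffolds. Spacings over 100 kb made up 11.2%, against 1.83%.

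A large share of the peaks sat on a few scaffolds. The 8 small scaffolds with the most peaks held 1632 of the 3433 (47.5%) on 28.8% of the length. Scaffold 33 led with 80, 83, 78 and 114 peaks. Scaffold 28 followed with 88, 81, 64 and 90, and scaffold 39 with 59, 51, 49 and 64. On scaffold 33 the late gastrula list stood well above the others, whereas on scaffolds 28 and 39 the early blastula and late gastrula lists were close. Scaffold 31 had more peaks in each later list, with 34, 46, 53 and 68, and scaffold 44 had 22, 28, 28 and 48. Scaffolds 29 (36, 40, 35 and 45), 30 (30, 41, 32 and 48) and 35 (28, 18, 20 and 31) completed the 8. The late gastrula list was the highest on each of them. That list is also the longest, with 64713 of the 202721 peaks, and was highest or tied highest on all 27 large scaffolds.

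**Figure D2:**
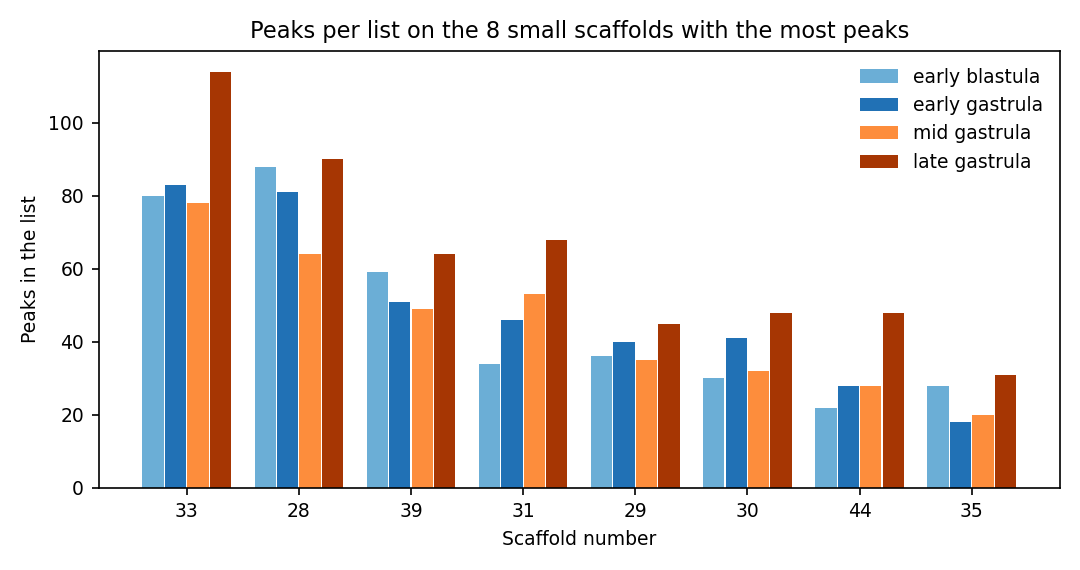
Number of peaks in each of the 4 lists on the 8 small scaffolds with the most peaks, named by scaffold number. The late gastrula bar is the tallest on all 8, from 31 peaks on scaffold 35 to 114 on scaffold 33. The late gastrula list is also the longest of the 4.

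Between stages, the number of peaks on small scaffolds moved as it did on the large ones. The late gastrula list held 1.40 times the peaks of the early blastula list (1.27 to 1.53), and the ratio was 1.40 on the large scaffolds too. Early gastrula held 1.05 times the early blastula number (0.954 to 1.16) against 1.05. Mid gastrula held 0.885 times the early gastrula number (0.801 to 0.977) against 0.895, and late gastrula 1.499 times the mid gastrula number (1.36 to 1.65) against 1.49. These ratios carry the lengths of the lists. With every list shortened to its 43317 highest-ranked peaks, which by construction brings the ratios near 1, they were 0.952, 0.984, 1.01 and 0.959 in the order given, against 1.0008, 1.0003, 0.9998 and 1.0007 on the large scaffolds. Of the 34 small scaffolds with at least 20 peaks over the lists, 29 had more late gastrula than early blastula peaks and 2 had fewer. On the large scaffolds it was 27 of 27. The 2 exceptions, named here after their values were seen, were scaffold 85, with 21, 13, 12 and 12 peaks, and scaffold 40, with 19, 19, 9 and 18. On scaffold 85, 10 of the 27 consensus regions had a peak at early blastula alone (37.0%, where the share of all regions was 10.2%). A high share is favoured by the choice itself, since scaffold 85 was named for its excess of early blastula over late gastrula peaks.

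Regions with a peak at every stage were somewhat less frequent on small scaffolds. The 3433 peaks merged into 1487 consensus regions, of 82811 in the whole genome. Any overlap of 1 bp or more with a peak made a region present in that list. Of the 1487, 380 were present in all 4 lists (25.6%, 23.4 to 27.8), where 29.1% of all regions were and 29.2% (28.8 to 29.5) of those on large scaffolds. Where a peak had to cover 50% of its region the shares were 22.9% and 24.2%. Presence in 3 lists was found for 221 (14.9%, 13.1 to 16.8; 15.3% of all regions), in 2 lists for 316 (21.3%, 19.2 to 23.4; 19.4%) and in 1 list for 570 (38.3%, 35.9 to 40.8; 36.1%). The interval for the last of these takes in the value of the large scaffolds, 36.1%. Of the regions in 1 list, 279 belonged to late gastrula (18.8%, 16.9 to 20.8; 18.7% of all regions) and 154 to early blastula (10.4%, 8.91 to 12.01; 10.2%). Both shares were close to the background. Early gastrula alone took 93 (6.25%, 5.13 to 7.60; 5.07% of all) and mid gastrula alone 44 (2.96%, 2.21 to 3.95; 2.18%). The intervals of these shares exclude the values of the large scaffolds, 5.05% and 2.17%, by little. Neighbouring peaks are not independent, so these intervals are too narrow.

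**Figure D3:**
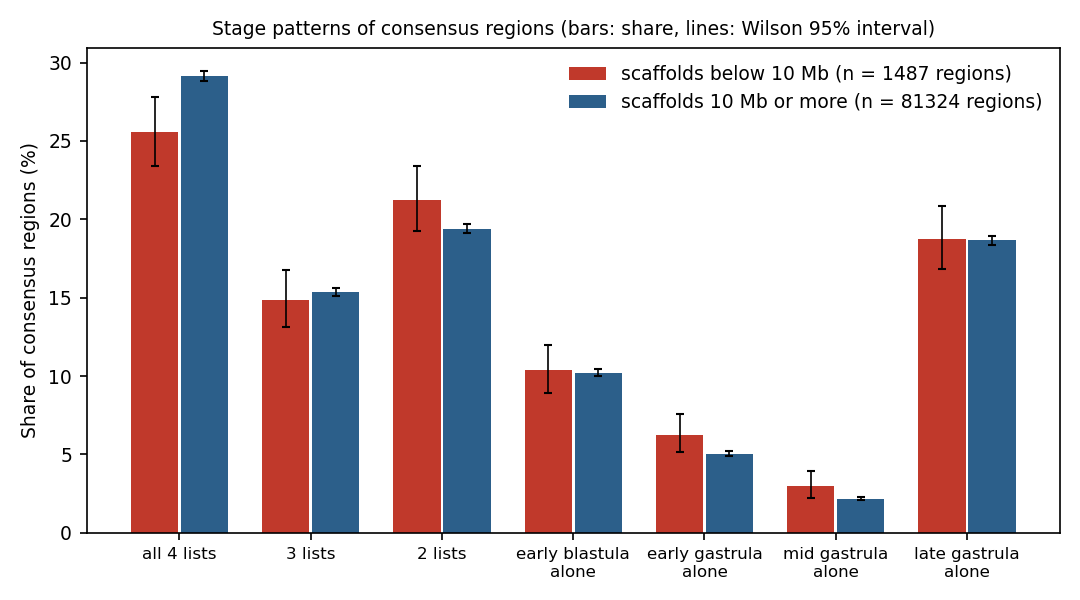
Share of consensus regions, in percent, by the lists in which they held a peak, for 1487 regions on small and 81324 on large scaffolds. Bars are shares and lines are Wilson 95% intervals. The bar for all 4 lists is lower on small scaffolds, at 25.6% against 29.2%, and those for early blastula alone and late gastrula alone are nearly level.

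Most patterns that span several stages were close in share to the background. Regions of mid and late gastrula alone numbered 116 (7.80%; 7.24% of all regions), those of early, mid and late gastrula alone 100 (6.72%; 7.67%), and those of early blastula and early gastrula alone 66 (4.44%; 4.4%). Early and late gastrula alone took 61 (4.10%; 3.68%), early blastula and late gastrula alone 42 (2.82%; 2.84%), and early blastula and mid gastrula alone 11 (0.740%; 0.458%). The sets lacking 1 gastrula stage each were 67 without mid gastrula (4.51%; 4.51%), 30 without early gastrula (2.02%; 1.82%) and 24 without late gastrula (1.61%; 1.33%). Early and mid gastrula alone took 20 (1.34%, 0.872 to 2.07; 0.826%), an interval just above the large-scaffold share of 0.816%. A gap, meaning absence between stages that held the region, was found for 211 (14.2%, 12.5 to 16.1; 13.3% of all). Of the 608 small-scaffold regions in both the early and late gastrula lists, 128 had none at mid gastrula (21.1%, 17.999 to 24.5), against 18.2% (17.8 to 18.6) on large scaffolds. Sharing between lists was lower by 2.37 to 4.70 percentage points in each of the 12 directed pairs, which use each overlap in both directions. It was 86.3% (83.7 to 88.7) from mid to late gastrula, against 90.6% on the large scaffolds, and 69.4% (66.0 to 72.5) from early blastula to early gastrula, against 72.0%. The interval took in the large-scaffold value in every pair from early blastula and in that from mid gastrula to early blastula. It also did so from late gastrula to early blastula and to mid gastrula, and lay below that value in the other pairs. At the step from mid to late gastrula 449 regions were gained and 99 lost, a ratio of 4.54, against 6.23 on the large scaffolds. From early blastula to late gastrula the 556 gained and 255 lost gave 2.18, against 2.27. The ratio was 1.16 against 1.13 from early blastula to early gastrula, and 0.700 against 0.661 from early to mid gastrula. These ratios also carry the lengths of the lists, with 43317 peaks at mid and 64713 at late gastrula. They have no intervals and were not taken at equal list lengths. The small scaffolds with no region in all 4 lists numbered 32, but they held only 65 regions together.

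Peaks on small scaffolds were narrower. Median width was 263 bp (quartiles 211 and 351), 264 bp (213 and 342), 268.5 bp (222 and 343) and 255 bp (208 and 328). On the large scaffolds the medians were 294, 291, 299 and 273 bp, with upper quartiles of 416, 404, 405 and 369 bp. The narrowest median was that of late gastrula in both classes. Scaffolds of 10 to 30 Mb lay between, with medians of 276, 279, 288 and 267 bp. When peaks were split by stage and by the number of lists holding their region, the small-scaffold median was the lower one in 16 of 16 classes. Small and large scaffolds had similar shares of these patterns, so this split could hardly have removed the difference. A region in all 4 lists also counts in 4 of the classes. The smallest gap was at mid gastrula alone, with 239 bp (44 peaks) against 242 bp. At early blastula the median was 295 against 333 bp for regions in all 4 lists and 230.5 against 249 bp for regions of that stage alone. Peaks longer than 1000 bp were few, with 4 (0.510%, 0.199 to 1.30), 2 (0.242%, 0.0665 to 0.880), 2 (0.274%, 0.0752 to 0.993) and 2 (0.183%, 0.0501 to 0.664). The large-scaffold shares, 0.855%, 0.412%, 0.272% and 0.209%, all lie within these intervals, so no difference in the share of such wide peaks was detectable. The widest early blastula peak of all, at 2494 bp, was on a small scaffold.

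Peaks on small scaffolds had higher fold enrichment than those on large ones in each list. The deposited enrichment is the authors' own value for a peak, read from the layout of the lists as a fold over background. It is given here as a percentile within its list, from 0 to 100, or as the fold itself, and folds of different lists are set side by side without a comparison. The median percentile on small scaffolds was 72.5 (quartiles 47.1 and 90.1), 67.2 (43.9 and 87.7), 69.3 (47.5 and 88.6) and 70.2 (44.99 and 89.0). The large-scaffold medians were 49.6, 49.7, 49.7 and 49.6. In units of fold the small-scaffold medians were 8.62, 9.65, 10.3 and 9.60, against 6.97, 8.12, 8.43 and 7.69. Scaffolds of 10 to 30 Mb lay between, at percentiles of 57.8, 56.1, 54.6 and 56.1. The upper 10% of a list by enrichment took in 197 (25.1%, 22.2 to 28.3; 10% of that list), 177 (21.5%, 18.8 to 24.4; 10%), 165 (22.6%, 19.7 to 25.8; 9.95%) and 260 (23.8%, 21.3 to 26.4; 10%) small-scaffold peaks. Among the 100 peaks of highest enrichment, small scaffolds held 11, 13, 14 and 11, where their share of a whole list was 1.69% to 1.70%.

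By the other deposited measures the median small-scaffold peak ranked near the middle of its list. By −log10 p their median percentile was 53.0, 49.95, 50.6 and 52.0. By the deposited score, which reflects the irreproducible discovery rate (IDR) between replicates, with ties resolved by −log10 p, it was 48.4, 46.1, 46.9 and 47.2, against 50.05 to 50.06 on the large scaffolds. The maximum score of 1000 was reached by 280 (35.7%, 32.4 to 39.1; 37.4% of that list), 285 (34.5%, 31.4 to 37.9; 39.7%), 247 (33.8%, 30.5 to 37.3; 38.2%) and 394 (36.01%, 33.2 to 38.9; 39.5%) small-scaffold peaks. The small scaffolds were thus above the large ones in enrichment and below them in median rank by score. Of the 100 highest peaks by −log10 p they held 6, 8, 5 and 7, above their share of 1.69% to 1.70% of each list. Of the 1000 highest by −log10 p they held 21, 21, 24 and 22. Those shares were 2.1% (1.38 to 3.19) in the first 2 lists, then 2.4% (1.62 to 3.55) and 2.2% (1.46 to 3.31). Each of these intervals takes in the share of the list. By enrichment they held 60, 61, 62 and 64 of the 1000 highest, or 6% to 6.4%.

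**Figure D4:**
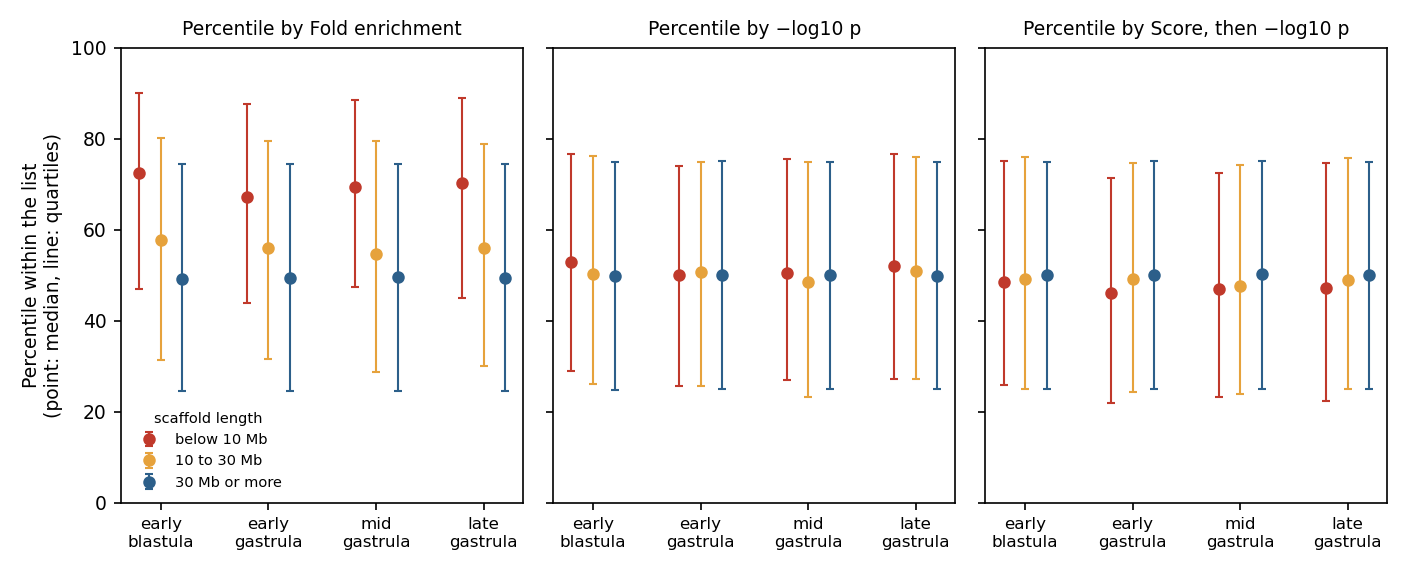
Percentile of peaks within their list by fold enrichment, by −log10 p and by score with ties resolved by −log10 p, for 4 stages and 3 classes of scaffold length. Points are medians and lines run between the quartiles. By enrichment the small-scaffold medians lie between 67.2 and 72.5, above both other classes, and by the other measures all classes lie near 50.

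The difference in enrichment was also seen among peaks of like −log10 p. Each list was cut into 10 equal classes by −log10 p, and the small-scaffold median percentile of enrichment was the higher one in 40 of 40 classes. Small and large scaffolds were close in median −log10 p, so this split could hardly have removed the difference. The same regions can also recur in several lists. In the class just below the middle of the range, the medians were 75.4, 73.4, 73.7 and 71.9 on small and 47.7, 49.4, 49.2 and 50.9 on large scaffolds. The difference also held by stage pattern, in 16 of 16 classes. Small and large scaffolds had similar shares of these patterns, so this split too could hardly have removed it. Late gastrula peaks in regions of all 4 stages had a median percentile of 86.7 on small and 65.9 on large scaffolds, and those of late gastrula alone 48.2 against 32.0. The single scaffolds showed it as well. Of the 34 small scaffolds with at least 20 peaks, 30 had a median percentile above 50, and 24 lay above the highest large scaffold, at 62.4. They ranged from 34.1 on scaffold 85 to 91.2 on scaffold 97, while the 27 large scaffolds ranged from 45.3 to 62.4.

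Peaks with many neighbours had lower enrichment than isolated ones, and small scaffolds had few neighbours. The small-scaffold medians did not fall at each step: at mid gastrula the class above 10 neighbours, with 25 peaks, stood at 52.8, above the 48.3 of the class before it, and at late gastrula 1 to 2 neighbours stood above none. Of the small-scaffold peaks of all lists, 18% had no other peak of the same list within 50 kb on either side, against 2.43% on large scaffolds, and 8.07% had more than 10, against 33.8%. Among peaks without a neighbour the median percentiles were 78.8, 76.2, 78.8 and 74.7 on small and 76.1, 70.5, 70.4 and 69.2 on large scaffolds. The gap between small and large scaffolds was thus 2.64, 5.71, 8.40 and 5.50 percentile points there, against 22.9, 17.6, 19.6 and 20.7 over all peaks. In the class with 1 to 2 neighbours the small-scaffold medians were 78.8, 73.5, 75.02 and 78.0, against 68.2, 67.2, 65.9 and 69.2. The small-scaffold median was the higher one in 18 of 20 combinations of stage and neighbour class. The exceptions were the classes of 6 to 10 neighbours at early gastrula, with 49.2 against 49.6, and at mid gastrula, with 48.3 against 48.5. A window of 50 kb can run past the end of a small scaffold, and 12.1% of the small-scaffold peaks lay within that distance of an end.

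**Figure D5:**
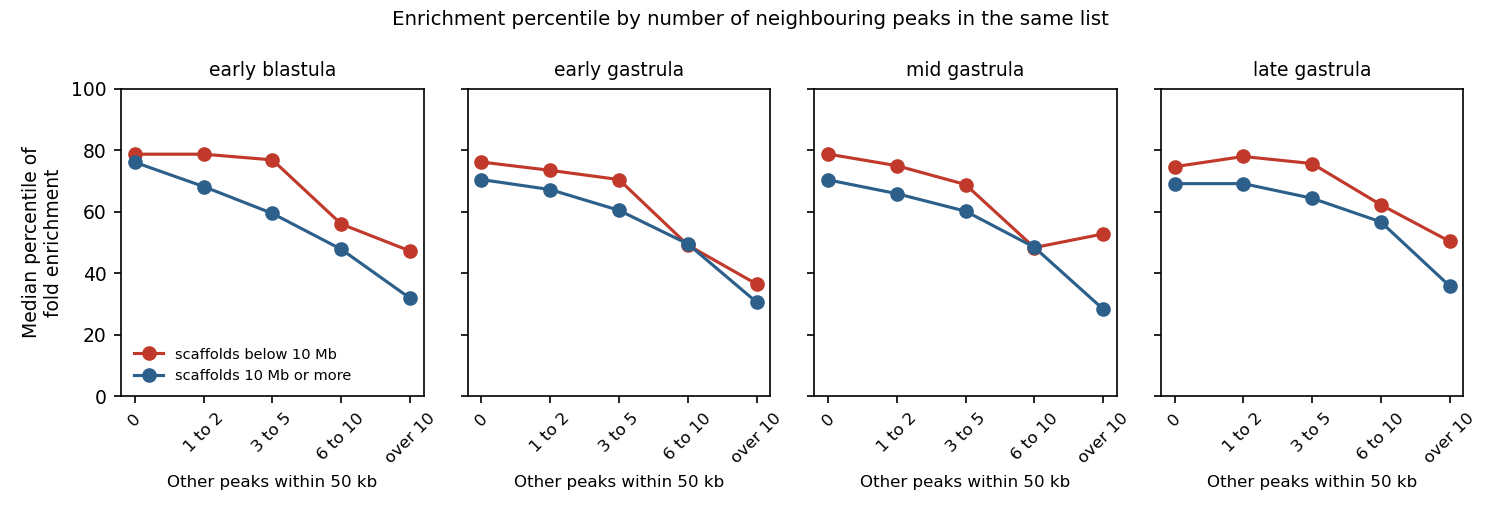
Median percentile of fold enrichment within the list, by number of other peaks of the same list within 50 kb, for each of the 4 stages on small and large scaffolds. Medians are lower at more than 10 neighbours than at 0 in every panel, with rises between neighbouring classes on small scaffolds at mid and late gastrula, and the curves are closer together at 0 neighbours than the gaps of 17.6 to 22.9 points over all peaks.

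Many small-scaffold peaks also shared their exact enrichment with other peaks. In each list the commonest enrichment values were whole multiples of a fixed step, of 0.280, 0.344, 0.366 and 0.316 in the lists. A peak was counted on this ladder if its enrichment lay within 0.0002 of a multiple and its −log10 p was the commonest one of that multiple. On small scaffolds 312 of 784 peaks were on it in the first list (39.8%, 36.4 to 43.3; 9.18% of that list), 333 of 825 in the second (40.4%, 37.1 to 43.7; 10.5%), 300 of 730 in the third (41.1%, 37.6 to 44.7; 9.4%) and 471 of 1094 in the last (43.1%, 40.2 to 46.0; 11.6%). The large-scaffold shares were 8.66%, 9.95%, 8.86% and 11.1%. Scaffolds of 10 to 30 Mb lay between, at 17.9%, 18.8%, 16.4% and 19.4%. The ladder was most common among isolated peaks, at 76.4% of small-scaffold and 56.5% of large-scaffold peaks without a neighbour within 50 kb. With more than 10 neighbours it was 10.1% and 2.32%. Without the ladder peaks the small-scaffold medians of the enrichment percentile were 61.1, 63.3, 68.5 and 68.2, and those of the large scaffolds 46.4, 46.4, 47.0 and 46.4. The ladder, the neighbours and the length of the scaffold thus moved together with enrichment, and their part in the difference was not tested.

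The strongest sites by enrichment were present at every stage. A site on scaffold 57 at 745247 to 745615 (1-based positions on the scaffold as named in the lists) had an enrichment of 25.3, 29.2, 28.2 and 32.3. The last was the highest of all 64713 late gastrula peaks. This site stood among neighbours, with 7 to 11 other peaks of a list within 50 kb. A site on scaffold 35 at 125873 to 126196 was nearly level with it, with 23.8, 29.6, 26.4 and 31.6 through the stages. Scaffold 148, only 97679 bp long, held a site at 57172 to 57488 with 20.8, 28.6, 27.8 and 30.4. A site on scaffold 71 at 48346 to 48711 had 23.3, 27.0, 28.2 and 25 and a −log10 p of 119.97, 137, 144 and 145. The fifth by mean percentile was on scaffold 30 at 713091 to 713621, with 22.3, 26.3, 26.2 and 28.4, and its peak was wider at early blastula, at 524 bp, than later, at 320 to 342 bp. All of these lay above the 99.9 percentile of their list at each stage.

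Some sites stood very high in 1 list and lower in another while present in all. The site on scaffold 67 at 78792 to 79061 had the highest enrichment of all 48416 early gastrula peaks, at 29.97. Its values were 22.7 at early blastula, 18.3 at mid gastrula and 11.4 at late gastrula, and its percentile was 99.96 at early blastula and 82.6 at late gastrula. It had no other early gastrula peak within 50 kb. A second site on scaffold 71 at 215131 to 215506 had 12.03, 22.4, 28.5 and 23.96. Its percentile was 93.6 at early blastula and 99.77, 99.98 and 99.87 in the gastrula lists. Without values per library neither difference can be set against replicate error.

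Sites of a single stage reached lower enrichment. Scaffold 32 held the leading one of the early blastula, at 2002989 to 2003227, with an enrichment of 15.7 and a −log10 p of 53.0, and the nearest peak of another list was 72942 bp away. Next was scaffold 46 at 334023 to 334276, with 13.7. Of early gastrula alone, scaffold 29 at 2556275 to 2556986 had 19.6 in a peak 712 bp wide and 331010 bp from any peak of another list. Its score, 682, was well below the maximum of 1000. Scaffold 33 at 1742865 to 1743223 followed with 15.6. Mid gastrula had its leading single-stage sites on scaffold 29 at 475435 to 475879, with 17.96, and on scaffold 144 at 85375 to 85678, with 15.4. They too were below the maximum score, at 853 and 634. Late gastrula had them on scaffold 29 at 1443925 to 1444220, with 18.4, and on scaffold 40 at 1293679 to 1293996, with 14.2. Peaks of other lists came within 652 bp of the one on scaffold 40 and within 17999 bp of the one on scaffold 29. Scaffold 29 thus held a leading site of each gastrula stage.

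The 12 small scaffolds with 1 peak in all lists together carried peaks of low score, like other small-scaffold peaks in regions of 1 list. Of these peaks 7 were in the late gastrula list, 3 at early gastrula, 1 at early blastula and 1 at mid gastrula. Of all 570 small-scaffold regions in 1 list, 279 belonged to late gastrula. Their enrichment ran from 6.96 to 10.1 with a median of 7.83, their median width was 192 bp, and none had the maximum score. Their median percentile was 49.2 by enrichment and 19.9 by score. All small-scaffold peaks in regions of 1 list had medians of 50.2, 47.1, 45.4 and 48.2 by enrichment, in order of development. By score the medians of those peaks were 25.1, 17.0, 12.1 and 18.8. Scaffold 47, the longest of the 12, held its peak at 595694 to 595850, in the early blastula list. At the other extreme of position, the first peak of scaffold 29 began at position 19 in all 4 lists and ended at 237 or 238, with enrichments of 8.12, 9.99, 10.3 and 11.7. On scaffolds 31, 57 and 94 a peak of 1 list each lay beyond the length in the scaffold name, by at most 475 bp.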

How the data were processed

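The authors deposited 1 peak list per stage, named as IDR peaks, with 12 columns and no header; Bowtie2, MACS2 and bedtools were used per the submitters' processing notes. The sources used here do not give versions, settings, genome build, the handling of multiply mapped reads or any pooling of libraries before calling. Column meanings were inferred from the layout and the values: the deposited score was read as a transform of the IDR capped at 1000, the deposited enrichment as a fold ratio over background, and the authors' significance column as −log10 p. MACS2 can take that background from the surroundings of a peak or from the whole genome; the setting is not known here. No list holds a peak with an IDR above 0.100. Starts were converted to 1-based positions. Peaks of all lists were merged where they overlapped by at least 1 bp. Percentiles within a list average ties, and medians and quartiles are given because peaks are not replicates. Named scaffolds are the 8 with the most peaks and the 3 densest and 3 sparsest of at least 100 kb. Named sites are the 3 highest by enrichment per list, the 5 regions of highest mean percentile in all lists, and the 2 highest of each stage alone. The members and lists were chosen with earlier results of these data known. Merging and percentiles were checked on simulated data. RefSeq gene positions were not used, since their build could not be matched to the lists. Tables were made with pandas 2.3.3 and NumPy 2.4.6 in Python 3.11.15, and figures with Matplotlib 3.10.9.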

Additional observations from a re-analysis of the deposited data

How the results depend on the processing

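Alternatives by neighbours, −log10 p, scaffold ends, ladder, comparison class, full-length windows and missing scaffold numbers were chosen after seeing the data. Of 120 values under alternatives, 59 stayed within counting error, 52 moved beyond it and 9 changed direction. Those 9 came from another measure set in place of enrichment or from lists of equal length. Values are given from early blastula to late gastrula. No paired analysis was possible because the lists carry no values per replicate, and for that reason none was left out. A limit of 5 Mb selects the same scaffolds.

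With a limit of 1 Mb the share of peaks was 0.601%, 0.613%, 0.577% and 0.637% and the density ratio to large scaffolds 0.178, 0.182, 0.171 and 0.188. As a ratio of scaffold medians the density ratio was 0.143, 0.157, 0.146 and 0.155. Without scaffold 33 it was 0.218, 0.219, 0.215 and 0.217. With an IDR of at most 0.01 it was 0.218 at early blastula, 0.216 at early gastrula and 0.218 at late gastrula. With missing scaffold numbers up to 164 counted as empty it was 0.218, 0.219 and 0.217 at those stages.

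Median width was lower on small scaffolds by a difference of -31, -27, -30.5 and -18 bp. It was -51, -38.5, -51 and -27 bp with an IDR of at most 0.01, and -46 bp at early blastula and -30 bp at late gastrula with the limit of 1 Mb. The difference in median enrichment percentile was 22.9, 17.6, 19.6 and 20.7 points. With the percentile taken by score, ties resolved by −log10 p, the difference was -1.62, -3.93, -3.17 and -2.88 points. With the percentile of −log10 p it was 3.09, -0.049, 0.573 and 2.11. Both are other measures, set in place of enrichment. Without neighbours within 50 kb the difference in enrichment percentile was 2.64, 5.71, 8.40 and 5.50. With 1 to 5 neighbours it was 15.4, 9.81, 9.89 and 11.03, and with more than 10 neighbours 15.4, 5.88, 24.5 and 14.5. Against scaffolds of 10 to 30 Mb the difference over all peaks was 14.7, 11.2, 14.6 and 14.2. Without ladder peaks it was 14.7 at early blastula. At mid gastrula it was 25.1 with the limit of 1 Mb and 17.9 with an IDR of at most 0.01.

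The difference in the share of regions in all 4 lists was -3.61 percentage points, and -1.26 where a peak had to cover 50% of its region. That in 1 list was 2.25 points, and 5.71 with the limit of 1 Mb. At equal list lengths, which brings the ratios of peak numbers near 1 by construction (0.9998 to 1.0008 on large scaffolds), they were 0.984 for early gastrula to early blastula, 1.01 for mid to early gastrula, 0.959 for late to mid gastrula and 0.952 for late gastrula to early blastula. The cause of the other changes was not tested. Depth is unknown and limits every count.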
